A study of Mus musculus with 4 samples.

Results

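Haem synthesis enzymes were examined in the frontonasal prominence (FNP) of the mouse embryo, the facial tissue that forms the nose and snout. The set held 7 autosomal genes, Alas1, Alad, Uros, Urod, Cpox, Ppox and Fech, chosen by name from the 33708 genes of the deposited table, and all 7 were found. The study sequenced poly(A) RNA of the FNP from 4 FVB/NJ embryos at E10.5, all at the 29-somite stage. The groups were 2 Smchd1+/+ embryos (WT, 1 female and 1 male) and 2 Smchd1MommeD43/MommeD43 embryos (MD43, 2 males). MommeD43 is a missense allele of Smchd1 made by chemical mutagenesis, and every MD43 embryo carried it on both chromosomes. WT replicate 2 and MD43 replicate 2 shared a mother. Sex is given as labelled. Another record of the study lists WT replicate 2 as female, in which case sex and genotype could not be told apart. The comparison asks which transcripts of this tissue differ in level between the genotypes.

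The table gives 1 value per gene and genotype, in log2 RPKM (reads scaled to exon length and library size, on a log2 scale), and this value is the mean over both libraries. No value below therefore carries a spread between embryos, no test of the genotypes was possible, and a value for each embryo cannot be given. The numbers of reads below were recovered from the values and are the geometric mean of the 2 libraries of a genotype. The error given with a difference is the smallest standard error (SE) that read counting allows, and the 95% intervals are built from it. They leave out the variation between embryos and so are narrower than an interval for the genotypes would be. The depth recovered was 22328791 reads per library in MD43 and 16055882 in WT. Smchd1 itself stood at 3.30 log2 RPKM in MD43 and 3.31 in WT, a difference of -0.013 ± 0.024 (counting SE). Because the allele is a missense change, its RNA level is no check of the genotype. The mesenchyme markers that define the labelled tissue were all present, with the lowest of the 10 listed genes at 2.02 log2 RPKM in MD43.

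Haem is the iron-bearing ring that globins, cytochromes and catalase need. Its synthesis begins in the mitochondrion, where ALAS joins glycine and succinyl-CoA, moves to the cytosol for the steps that build and trim the porphyrin ring, and returns to the mitochondrion, where FECH inserts iron. Every cell makes some haem, and developing red blood cells make by far the most. Red cells use a separate first enzyme encoded on the X chromosome, and the sex chromosomes were not analysed here, so Alas1 below is the form that most cell types use. The enzyme between ALAD and UROS was not analysed here either.

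All 7 enzymes had a higher value in MD43 than in WT, with differences from 0.03 (Ppox) to 0.45 (Cpox) on the log2 RPKM scale and a median of 0.26. A gene was counted as used when either genotype reached 10 reads. Of the 15377 used genes, 51.2% were higher in MD43, and their median difference was 0.006. None of the 7 reached a 1.5-fold difference in either direction, which 4.24% of used genes did upward and 6.43% downward. At a smaller difference of 0.32 on the log2 scale, 2 of the 7 (Uros and Cpox) were past the line upward and 0 downward, against 10.3% and 13.9% of used genes. All 7 enzymes had over 100 reads in each genotype. Among the 10757 genes of that kind, a filter chosen after seeing the data, 52.8% were higher in MD43, 4.34% were past 0.32 upward and 7.15% downward, and 0.576% and 1.78% passed 1.5-fold. In 6 of the 7 the difference was larger than its 95% counting interval, Ppox being the exception. Whether these small differences exceed the variation between embryos cannot be told from merged values.

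**Figure D1:**
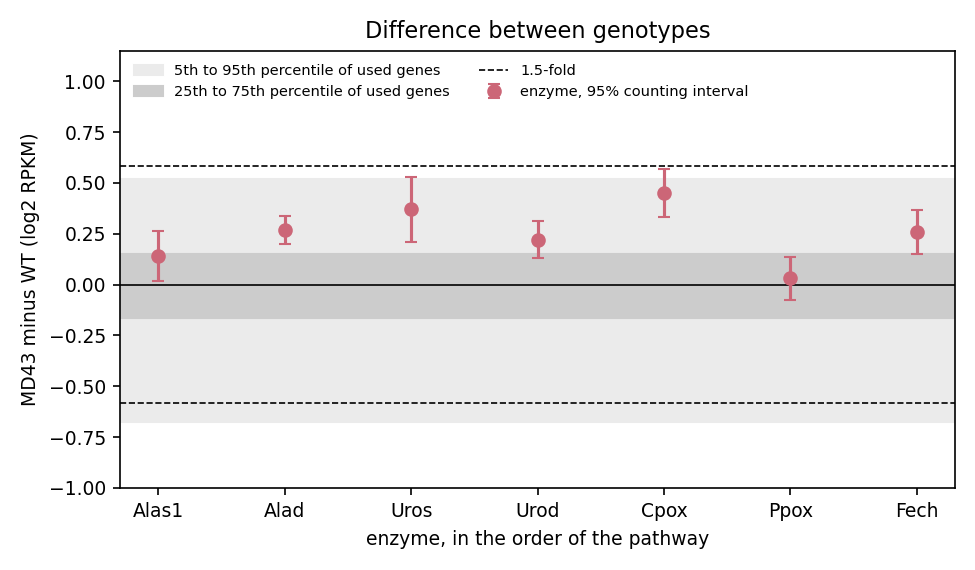
Difference between genotypes (MD43 minus WT, log2 RPKM, y axis) for the 7 enzymes in the order of the pathway (x axis). Points are the differences, bars the 95% counting interval, grey bands the spread of the 15377 used genes and dashed lines a 1.5-fold difference. All 7 points lie above 0 and under the upper dashed line, and Ppox at 0.03 lies nearest to 0.

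Alas1 (ENSMUSG00000032786, GRCm38 chromosome 9, 106233455 to 106248654, minus strand) encodes the first enzyme of the pathway, the step that limits the rate outside red cells. It had 430 reads in WT and 660 in MD43, or 4.34 and 4.78 RPKM. The difference was 0.14 ± 0.063 (counting SE), 1.10-fold, with a counting interval of 0.02 to 0.26 that just misses 0. Of the used genes, 26.5% had a higher difference.

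The cytosolic steps followed. Alad (ENSMUSG00000028393, chromosome 4, 62509169 to 62519918, minus strand) encodes the dehydratase that joins ALA molecules into porphobilinogen. It was the most abundant enzyme, with 1375 reads in WT and 2308 in MD43, or 45.8 and 55.3 RPKM, and its difference of 0.27 ± 0.035 was the most precise of the set. Uros (ENSMUSG00000030979, chromosome 7, 133686243 to 133710072, minus strand) encodes the synthase that closes the porphyrin ring. It had the fewest reads, 245 in WT and 441 in MD43, and the second highest difference, 0.37 ± 0.081 or 1.29-fold, with an interval of 0.21 to 0.53. Urod (ENSMUSG00000028684, chromosome 4, 116989965 to 116994413, minus strand) encodes the decarboxylase that trims the ring's side chains. Its 813 reads in WT and 1315 in MD43 gave 19.5 and 22.7 RPKM, a difference of 0.22 ± 0.046. The 3 cytosolic enzymes lay close together, and their intervals overlapped.

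The last mitochondrial steps were less alike. Cpox (ENSMUSG00000022742, chromosome 16, 58670292 to 58717636, plus strand) encodes coproporphyrinogen oxidase. It had 442 reads in WT and 843 in MD43, or 4.14 and 5.67 RPKM, and the highest difference of the set, 0.45 ± 0.060 or 1.37-fold, with an interval of 0.34 to 0.57. Of the used genes 6.18% had a higher difference, as had 1.38% of those with over 100 reads in each genotype. Ppox (ENSMUSG00000062729, chromosome 1, 171275990 to 171281186, minus strand) encodes the oxidase that acts next. It had 614 and 873 reads, 8.47 RPKM in WT and 8.66 in MD43, and a difference of 0.03 ± 0.054, within its counting error. The differences of these consecutive enzymes were 0.42 ± 0.080 apart. Fech (ENSMUSG00000024588, chromosome 18, 64452914 to 64490251, minus strand) encodes ferrochelatase, which completes haem. From 557 WT and 927 MD43 reads its difference was 0.26 ± 0.055 or 1.20-fold. The median was 0.20 over the 4 mitochondrial enzymes and 0.27 over the 3 cytosolic ones, and the range of the mitochondrial enzymes enclosed that of the cytosolic ones.

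The order of the levels followed neither the order of the pathway nor the compartment. In WT, Alad stood highest at 5.52 log2 RPKM, followed by Urod at 4.29 and Ppox at 3.08. Alas1 (2.12), Uros (2.09) and Cpox (2.05) came next, and Fech was lowest at 1.33. From Alad to Fech the levels spanned 18.2-fold. The steps from Alad to Urod (1.23 ± 0.045, counting SE), Urod to Ppox (1.21 ± 0.055), Ppox to Alas1 (0.96 ± 0.064) and Cpox to Fech (0.72 ± 0.065) exceeded their counting error. With the length used in the table, Alas1, Uros and Cpox were level with each other within that error, 0.02 ± 0.082 and 0.04 ± 0.081 apart.

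In MD43 the order at the top and the bottom was the same, with Alad at 5.79, Urod at 4.51, Ppox at 3.11 and Fech at 1.58 log2 RPKM. With this length, which decides the order of the middle enzymes, Cpox (2.50) and Uros (2.46) stood above Alas1 (2.26), and Cpox exceeded Alas1 by 0.24 ± 0.053, whereas in WT it was 0.07 below it (SE 0.069). The difference between the genotypes in this Cpox to Alas1 gap was 0.31 ± 0.087 (counting SE).

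**Figure D2:**
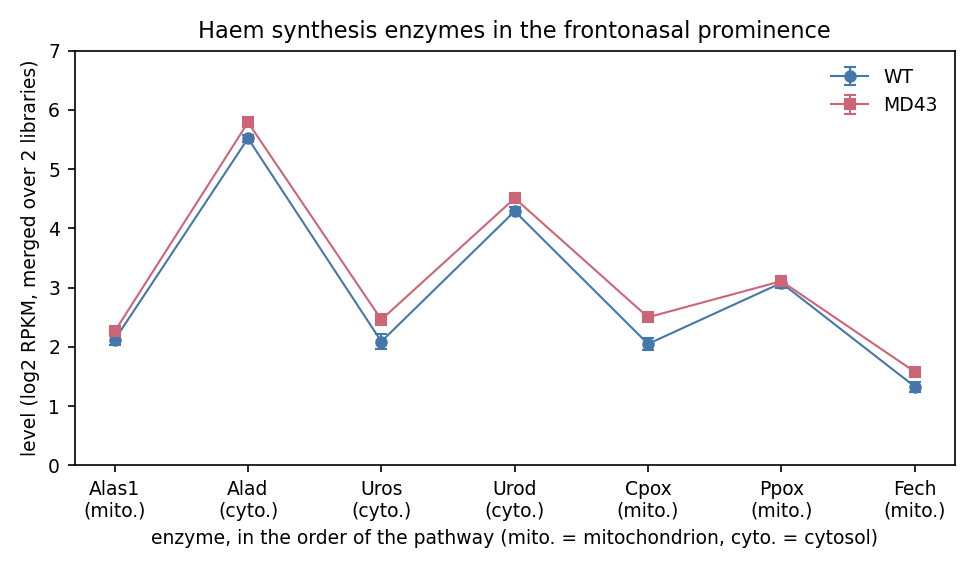
Level of each enzyme (log2 RPKM, y axis) in the order of the pathway (x axis, with the compartment of the enzyme) in WT (circles) and MD43 (squares). Bars are 95% counting intervals, and lines only join points of a genotype. Both genotypes peak at Alad, with 5.52 in WT and 5.79 in MD43, and have their minimum at Fech.

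These levels depend on the length assigned to a gene. The deposited values fitted a length made of all annotated exons joined, which ran from 1871 bases for Alad to 13838 for Fech, while the longest Fech transcript has 6571 bases. With the longest transcript as length, Fech stood at 2.40 log2 RPKM in WT, Cpox at 3.15 and Ppox at 3.12, so that the range fell to 3.20 and Cpox and Ppox were level. Cpox then stood above Alas1 (2.98) and Uros (2.80) in WT already, so these 3 were no longer level. The longest Ppox transcript, of 4411 bases, retains introns. With the longest protein-coding transcript, which for Ppox has 1821 bases, Ppox stood at 4.39 and the range was 3.70. Cpox (3.15), Uros (3.11) and Alas1 (2.98) then had the same order in WT as in MD43 (3.61, 3.49 and 3.12). Alad was highest, Urod second and Fech lowest under all 3 lengths. The length cancels in the differences between genotypes.

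**Figure D3:**
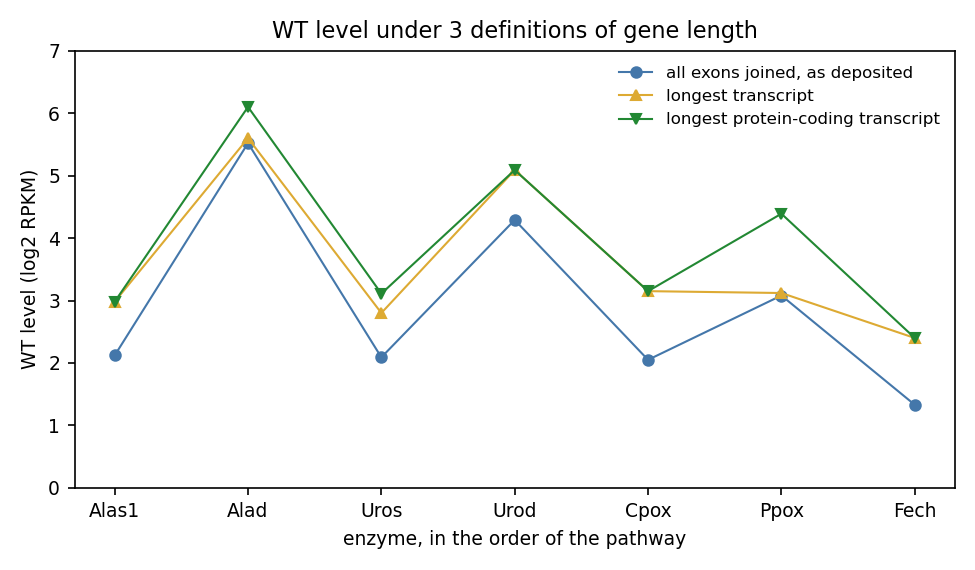
WT level (log2 RPKM, y axis) of the 7 enzymes in the order of the pathway (x axis) with 3 definitions of gene length. Alad is highest and Fech lowest with each, and Ppox moves most, from 3.08 with all exons joined to 4.39 with its longest protein-coding transcript.

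Some of the loci overlap other genes, and no source says whether reads were assigned by strand. Ppox and B4galt3, a galactosyltransferase gene on the opposite strand, share 791 exonic bases, 17.5% of the Ppox exons. For B4galt3 the reads numbered 470 (WT) and 733 (MD43), and its difference was 0.17 ± 0.060. The share of Ppox reads that came from it was not tested. The 5′ ends of Uros and Bccip, a cell cycle gene, overlap by 740 bases but share no exonic base. Bccip had 1723 reads in WT and a difference of 0.14 ± 0.032. Hectd3, a ubiquitin ligase gene that starts 904 bases from Urod on the other strand, had a difference of 0.13 ± 0.065, against 0.22 for Urod. Alas1 overlaps the antisense gene 4930500F10Rik, and Cpox overlaps Gpr15. Both of these neighbours had at most 2.32 reads in each genotype. The enzymes without a shared exonic base (Alad, Uros, Urod and Fech) had differences from 0.22 to 0.37.

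Starts from the RefSeq table (GRCm38.p6) were used for 6 of the enzymes. Fech was left out of this search by choice, so the counts below do not cover it. The 6 enzymes gave 9 windows of 250 bases before a start, since Alas1, Alad and Uros have 2 listed starts each. Windows of Alas1 and of Alad overlap each other. Of the 9 windows, 8 held more CpG dinucleotides than the median of all 32851 such windows, which was 6, and the count ran from 5 in the inner Uros window to 42 in the downstream Alas1 window. A search of both strands was made for 8 motifs. The letters that GATA factors of red cells bind (AGATAA or TGATAA, and those ending in G, AGATAG or TGATAG) stood in windows of 2 of the 6 genes, Cpox and Uros, and in 26.5% of all windows. In 9 windows a count of 2 is near that share. These were also the 2 enzymes with the highest differences. The windows with these letters were picked for display for this reason, out of 8 motifs searched. Whether the letters bear on the differences was not tested. The GATA letters, read on the opposite strand, are in capitals. The Cpox window has 2 such matches that overlap by 1 base.
Cpox, chr16:58669958-58670207, plus strand: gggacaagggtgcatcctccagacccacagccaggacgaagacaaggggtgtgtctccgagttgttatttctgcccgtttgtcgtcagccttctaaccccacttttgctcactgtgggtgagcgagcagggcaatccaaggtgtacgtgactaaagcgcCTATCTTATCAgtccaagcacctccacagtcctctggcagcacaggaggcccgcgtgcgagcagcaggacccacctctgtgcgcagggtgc
Uros, inner start, chr7:133702617-133702750, minus strand: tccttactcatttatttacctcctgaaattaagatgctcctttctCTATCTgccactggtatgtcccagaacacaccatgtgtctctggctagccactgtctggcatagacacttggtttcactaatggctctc

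The Uros stretch ends where an annotated Uros exon begins, and a second match lies 68 bases before the inner start, outside the stretch. The outer Uros window held none of the GATA letters. Reads from the 2 Uros starts are joined in the table, so their levels cannot be told apart. The palindrome bound by NRF1, a regulator of genes for mitochondrial proteins, was in the downstream Alas1 window, 195 bases before the start, and in 0.782% of all windows. The GC box GGGCGG was found in 5 of the 9 windows (Alas1, Alad, Uros and Urod) and in 32.7% of all windows. CCAAT was found in 4 of the 9 windows (Alad, Urod and Ppox) and in 33.8% of all windows. Both counts include the 2 overlapping Alad windows. CAGNTG was found in 2 windows, of Alas1 and Urod (44.8% of all windows), and CCNCACCC in the 2 overlapping Alas1 windows alone (14.9%). Neither TGAGTCA (4.46%) nor TGACGTCA (1.55%) stood in any of the 9 windows. These matches are letters in a window and no evidence of binding.

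Genes that supply the pathway or move its products were read from a list of 17, of which 16 were used genes. Of these, 11 were higher in MD43 and 5 lower, with a median difference of 0.12. Of all used genes 51.2% were higher, and 4.24% passed 1.5-fold upward and 6.43% downward. In this list only Shmt2 passed 1.5-fold, and it was lower. Slc25a37 (mitoferrin, which brings iron into the mitochondrion of red cell precursors) had 1196 reads in WT and 2122 in MD43, a difference of 0.35 ± 0.037. Slc25a38, the carrier of glycine for the first step, differed by 0.15 ± 0.061. Tmem14c, which helps porphyrin enter the mitochondrion, differed by 0.23 ± 0.045, and Abcb10, a partner of mitoferrin, by 0.22 ± 0.048. Flvcr1, a haem exporter, differed by 0.31 ± 0.078. These 5 values lie within the range of the enzymes, whereas the 5 lower genes of the list lie below it. Shmt2, the mitochondrial serine hydroxymethyltransferase that makes glycine, had 3214 reads in WT and 2972 in MD43, a difference of -0.59 ± 0.026.

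Genes of haem breakdown and sensing had no common direction. Of 9, 4 were higher and 5 lower, and none passed 1.5-fold. The median was -0.13, and -0.04 over those with at least 100 reads in each genotype. Hmox1, the inducible haem oxygenase, had a difference of -0.41 ± 0.077, from 344 reads in WT and 359 in MD43. Hebp1, a haem-binding protein, differed by -0.44 ± 0.066 and Bach1, the repressor that haem inactivates, by -0.20 ± 0.037. Ppargc1a, a co-activator of Alas1 in liver, had few reads (53.0 in WT, 59.1 in MD43) and a difference of -0.32 ± 0.193, within its counting interval. The 4 higher genes were Eif2ak1, the haem-regulated kinase, at 0.14 ± 0.034, Nrf1 at 0.11 ± 0.036, Blvrb, a biliverdin reductase, at 0.06 ± 0.103 and the constitutive haem oxygenase Hmox2 at 0.04 ± 0.045.

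Iron genes were also split. Of 11 genes of iron uptake and storage, 5 were higher and 6 lower, with a median of -0.04. Tfrc, the transferrin receptor, differed by 0.16 ± 0.027, and Slc11a2, which carries iron across the endosome membrane, by 0.43 ± 0.057. Steap3, the ferrireductase of red cell precursors, passed 1.5-fold upward at 1.26 ± 0.243, from 22.9 reads in WT to 76.1 in MD43. No other of the 11 passed 1.5-fold, against 4.24% of used genes upward. The iron exporter Slc40a1 differed by -0.43 ± 0.176. Of 12 genes of mitochondrial iron-sulphur cluster assembly, 8 were higher and 4 lower, with a median of 0.07, and none passed 1.5-fold. Among them the scaffold gene Iscu differed by 0.20 ± 0.073 and Glrx5, a glutaredoxin of the assembly, by 0.17 ± 0.041, whereas the co-chaperone gene Hscb differed by -0.24 ± 0.096. Another list of 10 held genes for haem proteins outside the globins, for haem A synthesis and for partners of haem proteins (Por, Uqcrh). Of these, 7 were higher and 3 lower, with a median of 0.20. The furthest were Cycs (cytochrome c) at 0.41 ± 0.047, Cox10, the first enzyme of haem A synthesis, at 0.36 ± 0.060, Cyb5b, the mitochondrial cytochrome b5, at 0.26 ± 0.021 and Cyc1 (cytochrome c1) at 0.22 ± 0.025. None of these 10 passed 1.5-fold.

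Markers of red blood cells were also higher in MD43. Of the 21 listed, 20 were in the table and used, 18 of them were higher in MD43 and 2 lower. Upward, 14 passed 1.5-fold, against 4.24% of all used genes. Their median difference was 0.86, against 0.26 for the enzymes. With a pseudocount of 1 RPKM, which shrinks the differences of low genes, the medians were 0.53 and 0.21, and the gap between them went from -0.60 to -0.32. The embryonic globin Hbb-bh1 stood at 10.43 log2 RPKM in WT and 11.47 in MD43, a difference of 1.04 ± 0.010, and the embryonic globin Hba-x differed by 0.79 ± 0.015. The anion exchanger Slc4a1 differed by 1.52 ± 0.083, the Rh-associated glycoprotein Rhag by 1.38 ± 0.275 and the red cell membrane protein Ermap by 1.33 ± 0.172. Hba-a2 differed by 2.57 ± 0.147, but it is nearly identical to Hba-a1 (0.68) and the split of their reads is uncertain. Both lower markers were adult globins, Hbb-bs at -0.28 and Hbb-bt at -0.53, which also resemble each other. The summed level of the list was 3195 RPKM in WT and 6042 in MD43, a difference of 0.92 on the log2 scale, and that of the 7 enzymes 89.0 and 106 RPKM, a difference of 0.25. No red cell marker in the table was at 0. The part of red cells in the higher enzyme values was not tested. In such bulk tissue more cells of a type and more RNA per cell cannot be told apart.

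**Figure D4:**
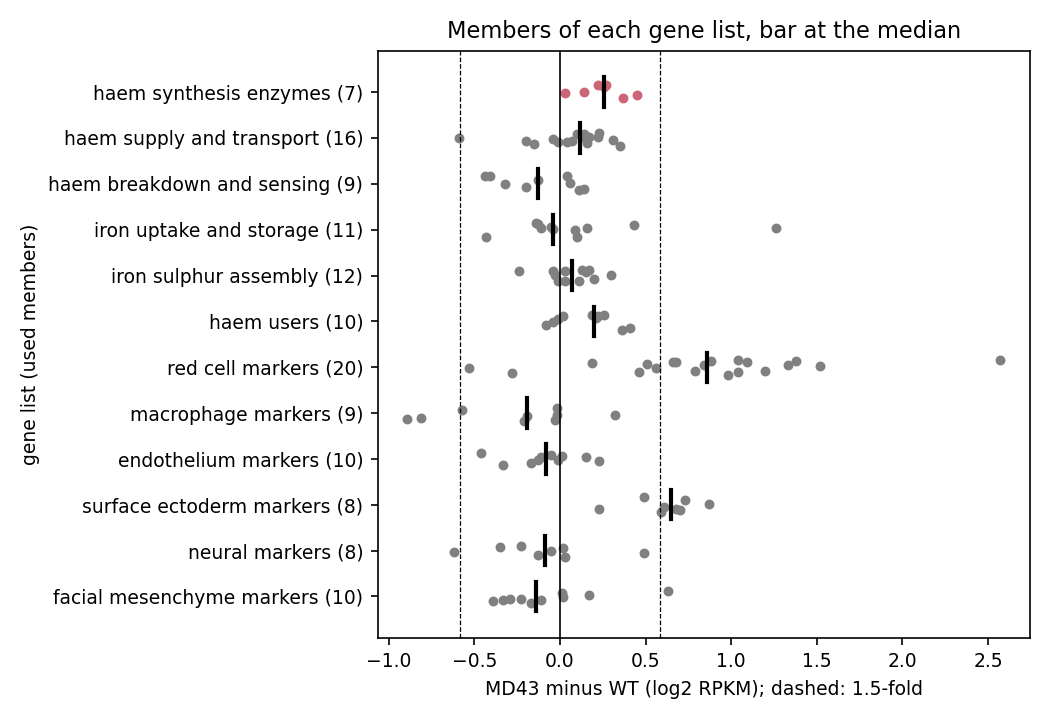
Difference between genotypes (MD43 minus WT, log2 RPKM, x axis) of each used gene in 12 lists (y axis, number of used genes in brackets). Each point is a gene, black bars are medians and dashed lines mark 1.5-fold. The 7 enzymes sit between 0.03 and 0.45, below most red cell markers, whose median is 0.86.

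Markers of other cell types differed as well. All 8 surface ectoderm markers were higher in MD43, 6 of them past 1.5-fold (against 4.24% of used genes), with a median of 0.65. Among them were the tight junction gene Cldn6 (0.87 ± 0.047), the E-cadherin gene Cdh1 (0.73 ± 0.055), the keratin gene Krt8 (0.70 ± 0.044) and the epithelial regulator Grhl2 (0.68 ± 0.061). Macrophages recycle haem through Hmox1. Of 10 listed macrophage markers 9 were used, 8 were lower and 1 (Fcer1g, 0.32 ± 0.468) higher, with a median of -0.19 on few reads, or -0.04 with a pseudocount of 1 RPKM. Of all used genes, 51.2% were higher in MD43. C1qb at -0.89 ± 0.280 and Tyrobp at -0.81 ± 0.347 were past 1.5-fold downward, against 6.43% of used genes. These calls rested on few reads, 31 in WT and 23.2 in MD43 for C1qb, and 19.6 and 15.5 for Tyrobp. The counting interval of each gene reached inside the 1.5-fold line. Cx3cr1 stood at -0.57 ± 0.253. Csf1r, which had by far the most reads of this list (231 in WT, 314 in MD43), stood at -0.03 ± 0.088. The summed macrophage level was 8.94 RPKM in WT and 7.11 in MD43. The part of ectoderm and macrophages in the values of the haem genes was not tested.

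The remaining marker lists had medians near 0. The endothelium list had 3 genes higher and 7 lower and a median of -0.08, with Sox18 at -0.46 ± 0.118, the receptor gene Kdr at -0.33 ± 0.078, Tie1 at 0.23 ± 0.135 and Pecam1 at -0.17 ± 0.129. The neural list had 3 higher and 5 lower and a median of -0.09, with the patterning genes Otx2 at -0.62 ± 0.033, Lhx2 at 0.49 ± 0.025, Pax6 at -0.35 ± 0.032 and Sox1 at -0.23 ± 0.037. The frontonasal mesenchyme list had 4 higher and 6 lower and a median of -0.14, with Twist1 at -0.39 ± 0.047, the growth factor receptor gene Pdgfra at -0.33 ± 0.049 and Prrx1 at -0.29 ± 0.033.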

How the data were processed

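Stranded mRNA libraries were made by the study from 100 ng of total RNA of 4 FNPs. Per the submitters' processing notes and the study's methods, reads were trimmed with Trim Galore 0.4.4, mapped with HISAT2 2.0.5 to GRCm38.p6, and quantified by the authors in SeqMonk. The authors scaled reads to library size and length, and the deposited values are log2 RPKM, with both libraries of a genotype merged. Columns with the authors' own comparison (FDR, log2 fold change, average) were not used. Sex chromosomes were not analysed here.

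All rows were joined to GENCODE mouse release 21 (GRCm38) on symbol and coordinates, and 33101 matched. The most frequent difference (-0.48, 12862 rows) marked genes without reads, where value plus log2 exon length was 1 constant in 97.9%. A library without reads counted as 0.9 reads. Squared relative values under 1000 were whole (tolerance 0.02), or 0.9 times whole, in 99.9% for both genotypes, and were taken as the product of the read counts of both libraries. The recovery was tested on simulated data built on the same assumptions. That checked the calculation, not how the deposited values were made. Differences are MD43 minus WT. The counting SE is the square root of 0.5 over the reads of each genotype, summed, on the log2 scale. A gene was used when 1 genotype reached 10 reads, and a call was a 1.5-fold difference.

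Pseudocounts of 0.1 and 1 RPKM, centring, other filters and folds, other lengths and a quadratic correction for GC content and transcript length (1.41% of the variance) were tried. The named genes are the 7 enzymes, Smchd1, up to 4 members of each list with the largest absolute difference, 8 genes fixed by name, and genes that overlap an enzyme or start within 1 kb of it. Some genes that this rule names are not reported here. Other genes (Hbb-bs, Hbb-bt, Hba-a1, Gfi1b, Nfe2, Eif2ak1, Nrf1, Blvrb, Hmox2, Csf1r, Por, Uqcrh) were named after their values were seen. The enzymes and lists were chosen with earlier results of these data known. Python 3.11.15, numpy 2.4.6, pandas 2.3.3 and matplotlib 3.10.9 were used.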

Additional observations from a re-analysis of the deposited data

How the results depend on the processing

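The differences of the 7 enzymes were recomputed with pseudocounts of 0.1 and 1 RPKM, after centring at the used genes' median and after correcting for GC content and length, and all 28 values stayed positive and within their 95% counting interval. These alternatives use the same merged values and are no check of replication. With a difference of 0.32 on the log2 scale in place of 1.5-fold, 2 of the 7 enzymes were past it, by the lower limit itself. The range of WT levels over the enzymes, 4.19 on the log2 scale, was 3.20 with the longest transcript as length and 3.70 with the longest protein-coding transcript, a length definition added after seeing the data. Smchd1 changed sign, from -0.013 to 0.051, under the GC content and length correction, and the cause was not tested. Of 77 recomputed medians of the other lists none changed sign and 1 moved by more than the spread of its members. It was that of the macrophage markers, -0.82 when only genes with a mean of at least 0 log2 RPKM (Csf1r, C1qb and Tyrobp) were kept. With at least 100 reads in each genotype, which left Csf1r alone, it was -0.03. No paired analysis was possible because each genotype has a single merged value, and the planned replicate block and fits without 1 library were not run for the same reason. Whether 1 embryo decides any of these differences is unknown.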
